A study of Homo sapiens with 20 samples.

Results

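The comparison described here is made of 4 libraries, 2 of HEL cells given BI-D1870 alone and 2 of HEL cells given BI-D1870 with BCI, out of 20 libraries in the series. The choice rests on the labels alone and on no measured value. HEL is an established human erythroleukaemia line that depends on a mutated JAK2 kinase, and a single line was used. BI-D1870 was given at 10 µM and BCI at 1 µM, and both groups were harvested at 24 h by the labels. Both carried BI-D1870, so the comparison asks what BCI adds in cells also given this inhibitor of RSK kinases. The 2 DMSO libraries of the same table gave the solvent level, and the combination was not tested against them. BCI alone was measured in other libraries of another table, at 1 µM for 4 h and 48 h by the labels, with DMSO controls of 2 libraries each. The columns of the 48 h libraries are headed 24h in that table. The labels were followed here, and which time is right could not be settled. No library is labelled as BCI alone at 24 h, and the BI-D1870 table holds none of BCI alone. The effect of BCI with and without BI-D1870 could thus not be compared within 1 table.

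The ERK pathway carries growth signals from cytokine receptors and JAK2 to the nucleus. ERK phosphorylates the RSK kinases, and it induces its own brakes, among them DUSP6, a phosphatase that takes the activating phosphates off ERK. BCI inhibits DUSP6 and the related DUSP1, while BI-D1870 inhibits the RSK family, and neither activity was measured in these libraries. HEL cells express fetal and embryonic globins together with platelet genes. Cells under proteotoxic or oxidative stress switch on heat shock genes through HSF1 and antioxidant genes through NRF2.

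The 4 libraries held 54141164 to 70128404 counts, and levels are given as CPM, counts scaled to TMM-adjusted library size. The limit set by a count of 0, taken as 3 counts, was 0.0428 to 0.0554 CPM. Each treatment was done in duplicate per the labels, with no word on separate cultures, so p-values measure the spread between these libraries, which may be technical. HEL markers were at high levels in every library: the fetal globin HBG2 stood at 1039.6 to 1836 CPM, the platelet integrin ITGA2B at 1172 to 1249 CPM and the erythroid factor GATA1 at 228 CPM or more. Of the marker lists of other cells, monocyte and granulocyte genes summed to 135 and 137 CPM with BI-D1870 and to 159 and 149 CPM with BCI added, with 5 of 29 at 0. Lymphoid markers summed to 36.3 and 38.2 CPM against 44.7 and 46.0 CPM, with 2 of 19 at 0. Epithelial and stromal markers summed to 119 and 112 CPM against 141 and 143 CPM, with 3 of 17 at 0. In bulk RNA, fewer cells of a type and less RNA per cell cannot be told apart.

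Adding BCI to BI-D1870 raised 474 genes and lowered 530 of 21328 tested (edgeR quasi-likelihood test, Benjamini-Hochberg adjusted p under 0.05), which is 4.71% of all genes, 2.22% higher and 2.48% lower. Among the 11151 genes of at least 4 CPM, 3.96% were higher and 4.49% lower, shares to set beside the list counts below. The changes were small. The median absolute log2 fold change of the 1004 called genes was 0.26, and 115 changed at least 1.5-fold, 56 up and 59 down. The antioxidant enzymes NQO1 and GSTP1 and the iron store FTL led the rises, and alpha globin, the chaperone HSPA8, the transcription factor JUN and the replication helicase subunit MCM7 led the falls. For scale, BI-D1870 against DMSO called 10045 genes, 47.1% of those tested, with the same BI-D1870 libraries. Each group has 2 libraries, and in 9969 genes, 46.7%, the libraries of the 2 groups did not overlap, so separation alone says little here.

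The number of calls rested on each of the 4 libraries. Without BI-D1870 replicate 1 or 2 it was 367 and 325, and without replicate 1 or 2 of the combination 565 and 393. Where the text below names 1 library without which a gene was lost, it is the one with the highest adjusted p. The call may be lost without others too. In a test of a change beyond 1.5-fold (edgeR glmTreat), 13 genes passed. The 4 higher ones were NQO1, GSTP1, FTL and the pseudogene FTLP3. The 9 lower ones were HBA1, HBA2, HBE1, HSPA8, JUN, MCM7, the pseudogenes HSPA8P1 and HSPA8P9, and the pseudogene AC110749.1.

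**Figure D1:**
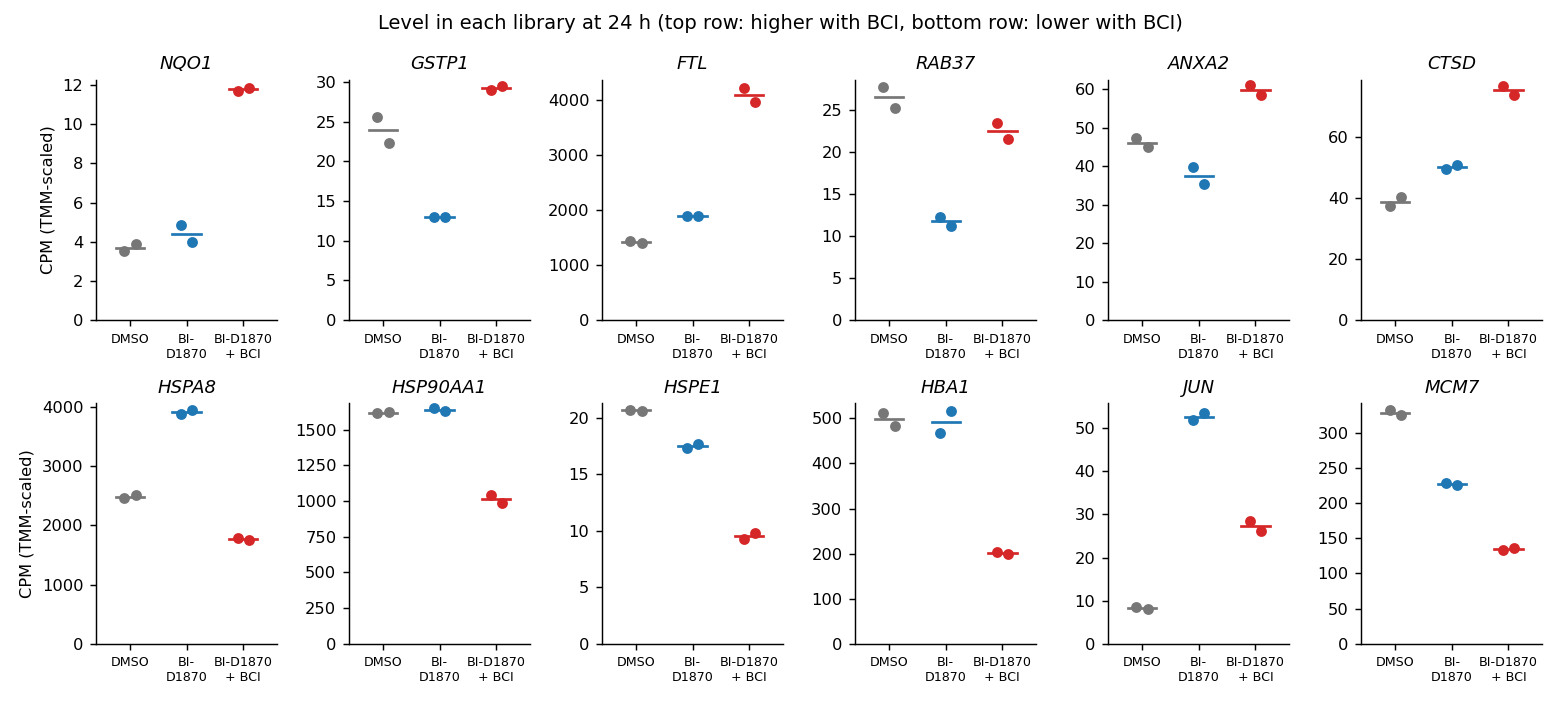
CPM of 12 genes in each library at 24 h, with DMSO in grey, BI-D1870 in blue and BI-D1870 with BCI in red; dots are the 2 libraries and bars their mean, and every vertical axis starts at 0. In all 12 panels the 2 red dots lie clear of the 2 blue dots, with FTL at 4219 and 3965 against 1894 and 1886 CPM and HSPA8 at 1792 and 1755 against 3875 and 3949.5 CPM.

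Promoter sequences are shown for GSTP1, HSPA8, HSP90AA1 and HSPD1, because GSTP1 was among the largest rises, the other 3 are chaperone genes that fell, and their windows hold the letters of the elements that NRF2 and HSF1 bind. Stretches of 30 bases are given on the gene's strand, from RefSeq (GRCh38.p14). Capitals mark matches to TGACNNNGC, the antioxidant response element, in GSTP1, and to GAANNTTC or TTCNNGAA, inverted heat shock units, in the chaperones.
GSTP1, chr11:67583736-67583765, + strand: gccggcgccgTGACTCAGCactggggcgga
HSPA8, chr11:123062170-123062199, - strand: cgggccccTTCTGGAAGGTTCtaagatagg
HSPA8, chr11:123062345-123062374, - strand: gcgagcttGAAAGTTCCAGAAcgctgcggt
HSP90AA1, chr14:102087104-102087133, - strand: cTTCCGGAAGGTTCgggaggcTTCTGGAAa
HSPD1, chr2:197500061-197500090, - strand: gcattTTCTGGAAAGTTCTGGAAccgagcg
The capitals in GSTP1 begin 66 bases before the start of transcription, and those of HSPA8 begin 55 and 230 bases before it. The GSTP1 letters also hold those of an AP-1 site, TGACTCA, the kind that JUN binds. Both strands of the 250 bases before each start were searched. TGACNNNGC was found in 10.9% of 35116 promoters, in 15.6% of the 11102 tested coding genes with a promoter entry, in 6 of 29 matched genes raised at least 1.5-fold and in 1 of 22 matched genes lowered as much. The heat shock letters were found in 11.6% of all promoters, in 8 of the 29 and in 6 of the 22. The windows of NQO1 and FTL held no match to TGACNNNGC. Those of HSPE1 and HSPH1, which fell too, held no heat shock match, nor did a second listed start of HSP90AA1 and of HSPD1. A match is a description of the letters and says nothing of binding in these cells.

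A difference between replicates of the BCI table ran through many of the leading genes, and it was noticed after the values were seen. The 2 DMSO libraries at 48 h differed from each other by 0.17 on the log2 scale in the median gene (absolute difference, genes of at least 4 CPM), against 0.066 between the 2 DMSO libraries at 4 h and 0.068 between those at 24 h. HSPA8 stood at 2229.5 CPM in DMSO replicate 1 at 48 h and at 989 CPM in replicate 2, HBA1 at 478 and 209 CPM, MCM7 at 319 and 112 CPM and HLA-B at 274 and 131 CPM. GSTP1 stood at 22.4 and 60.5 CPM, FTL at 838 and 1949 CPM and CTSD at 59.0 and 148 CPM. The BCI libraries at 48 h differed in the same way, with HSPA8 at 2324 and 1016 CPM and GSTP1 at 24.5 and 56.2 CPM.

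Among genes of at least 4 CPM that changed at least 1.5-fold and passed at 24 h, 23 of 26 risers were higher in DMSO replicate 2 at 48 h than in replicate 1, against 45.3% of all genes at that level. In the other DMSO pairs that number was 13 at 24 h and 16 at 4 h. Of 33 fallers, 23 were lower in replicate 2 at 48 h, which is close to the 22 at 24 h and the 22 at 4 h, and 27 were lower in replicate 2 of BCI at 4 h. The count of fallers is thus not particular to 48 h. Their median absolute difference was 0.70 between the DMSO replicates at 48 h, 0.12 at 24 h and 0.11 at 4 h. Pseudogenes that may share reads with FTL or HSPA8 are counted here, and for protein-coding genes the numbers were 20 of 23 and 13 of 20. Across 11147 genes Spearman's rho between that replicate difference and the change with BCI on BI-D1870 was 0.28, and 0.23 with GC and length trends removed, a description across genes that share these libraries. The match was not general: HSP90AA1 stood at 614 and 614 CPM in the 2 DMSO libraries at 48 h, HSPE1 at 10.6 and 10.0 CPM and HBE1 at 87.8 and 84.8 CPM. JUN, at 9.63 and 30.4 CPM, was higher in the replicate where HSPA8 was lower, and all 13 mitochondrially encoded genes were higher there. These libraries take no part in the comparison at 24 h, and the part of such a difference in it was not tested.

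**Figure D2:**
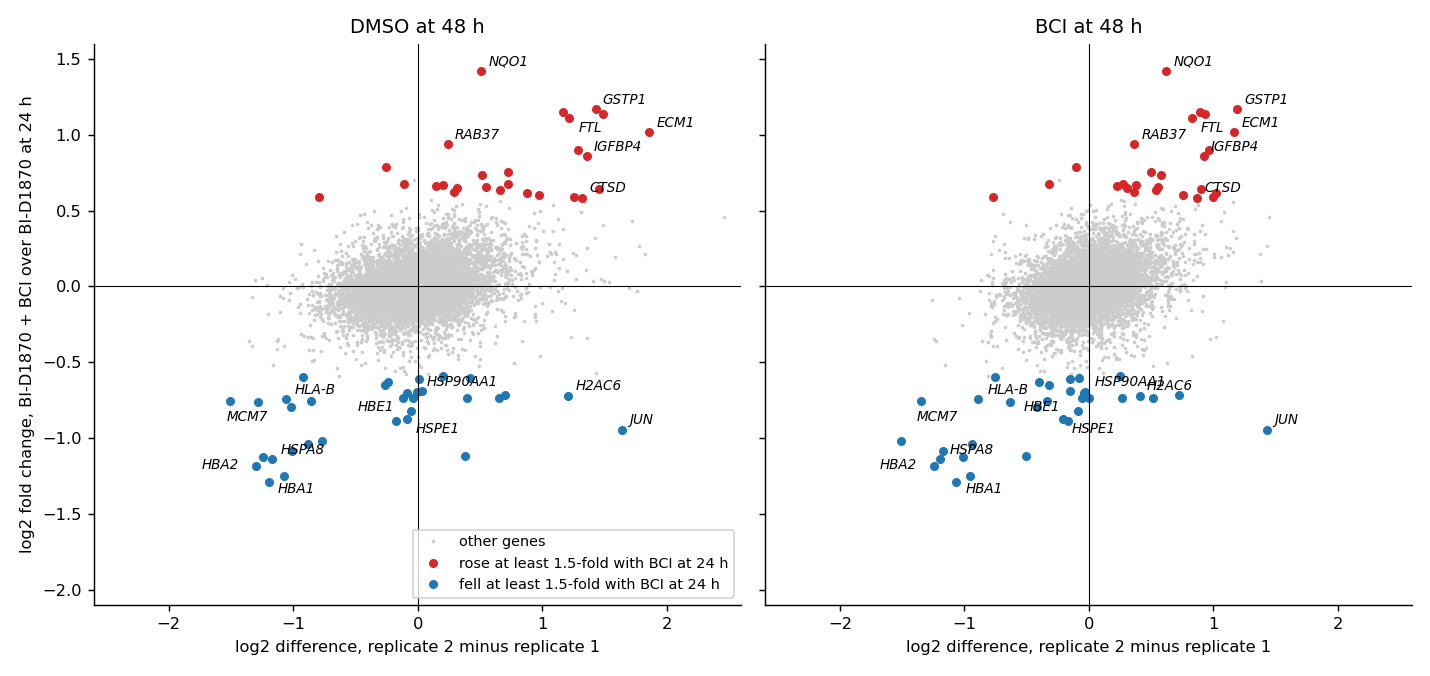
Change with BCI on BI-D1870 at 24 h (vertical, log2) against the difference between the 2 replicates at 48 h (horizontal, log2 of CPM + 0.1), left for DMSO and right for BCI, for genes of at least 4 CPM; coloured points passed and changed at least 1.5-fold at 24 h. In the left panel 23 of 26 red points lie right of 0 and 23 of 33 blue points left of it, with HSP90AA1 and HSPE1 near 0 and JUN far right.

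Among protein-coding genes of at least 4 CPM with separate groups, the 3 largest rises were of NQO1, GSTP1 and FTL. NQO1 (ENSG00000181019, chr16:69706996-69726951 in GENCODE 29), a quinone reductase and standard NRF2 target, stood at 4.85 and 3.97 CPM with BI-D1870 and at 11.7 and 11.9 CPM with BCI added. Its log2 fold change was 1.42 (SE 0.125, edgeR adjusted p = 1.1e-06), while the DMSO libraries stood at 3.53 and 3.87 CPM. Both combination libraries were thus well above both BI-D1870 and both DMSO libraries.

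GSTP1 (ENSG00000084207, chr11:67583595-67586656), a glutathione transferase, stood at 12.99 and 12.97 CPM with BI-D1870 and at 28.9 and 29.4 CPM with BCI (log2 1.17, SE 0.0784, edgeR adjusted p = 1.9e-08). Its DMSO libraries, at 25.6 and 22.3 CPM, were close to the combination. FTL (ENSG00000087086, chr19:48965301-48966878), the ferritin light chain, stood at 1894 and 1886 CPM with BI-D1870 and at 4219 and 3965 CPM with BCI (log2 1.11, SE 0.0362, edgeR adjusted p = 1.9e-13). The combination was the highest of the 3 groups for FTL, with DMSO at 1425 and 1399 CPM. Of 5 FTL pseudogenes tested, 3 were higher, and reads may be shared between the copies.

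The heavy chain of ferritin, FTH1, spread more than it differed: 308 and 491 CPM with BI-D1870 against 656 and 479 CPM (log2 0.50, edgeR adjusted p = 0.13), with overlapping groups. Across the NRF2 target list, 22 of 23 genes were tested, and 3 rose and 4 fell. That is 13.6% higher and 18.2% lower, against 3.96% and 4.49% of genes of at least 4 CPM. The list's median log2 fold change was 0.02 against 0.01 for all tested genes. OSGIN1, a growth inhibitor induced by oxidative stress, was the third member called higher after NQO1 and FTL, and went from 2.55 and 2.41 CPM to 4.06 and 4.15 CPM (log2 0.73). Its call was lost with any 1 of the 4 libraries left out (log2 0.68 to 0.77).

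The 4 NRF2 list members that fell were HMOX1, SLC7A11, GCLM and TKT. HMOX1, the haem-degrading enzyme, fell from 9.75 and 8.64 CPM to 3.87 and 4.58 CPM (log2 -1.12, SE 0.127, edgeR adjusted p = 2.5e-05), below its DMSO level of 6.10 and 6.37 CPM. GCLM, the regulatory subunit of an enzyme of glutathione synthesis, fell from 122 and 122 CPM to 95.2 and 94.8 CPM (log2 -0.36). SLC7A11, the cystine importer, fell from 7.17 and 7.19 CPM to 4.40 and 5.61 CPM (log2 -0.52) and was lost without combination replicate 1 (edgeR adjusted p = 0.25). TXNRD1, another standard target, had log2 0.03 and did not pass. Members of 1 list thus moved in both directions.

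Other leading rises were of genes with less in common. RAB37, a GTPase of secretory vesicles, stood at 12.3 and 11.2 CPM with BI-D1870 and at 23.4 and 21.6 CPM with BCI (log2 0.94, SE 0.0829, edgeR adjusted p = 1.1e-06), with DMSO at 27.8 and 25.3 CPM. ANXA2, a membrane-binding annexin, went from 39.7 and 35.4 CPM to 61.2 and 58.6 CPM (log2 0.68, SE 0.0602, edgeR adjusted p = 1.1e-06). Both groups were apart in both genes, and BCI brought RAB37 close to its DMSO level and ANXA2 above it.

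The secreted matrix protein ECM1 (log2 1.02), the growth factor binder IGFBP4 (0.86), the adaptor SORBS3 (0.79), the differentiation inhibitor ID3 (0.75) and TMC8 (0.67) rose and kept their calls with any 1 of the 4 libraries left out. MTG1 (0.74) and CYTH4 (0.67) rose as well, but MTG1 was lost without combination replicate 2 (edgeR adjusted p = 0.46) and CYTH4 without combination replicate 1 (edgeR adjusted p = 0.088). Exons of other genes cover 45.5% of the exonic bases of MTG1 in GENCODE 29.

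Of 46 tested members of the autophagy and lysosome list, 3 rose and 0 fell, with a median of 0.06. That is 6.52% higher, near the 3.96% of all genes of at least 4 CPM, so the count says little of the list as such. CTSD, the protease cathepsin D, stood at 49.4 and 50.8 CPM with BI-D1870 and at 76.6 and 73.8 CPM with BCI (log2 0.59, SE 0.0527, edgeR adjusted p = 1.2e-06). Exons of other genes cover 52.7% of the exonic bases of CTSD, so its reads may be shared. CTSA (log2 0.22), a protective carboxypeptidase, rose less. With GC content and length trends removed, CTSA did not pass (edgeR adjusted p = 0.15). With any 1 of the 4 libraries left out, 1 member of the list was called. Between the 2 DMSO libraries at 48 h the list's median difference was 0.25, with replicate 2 higher.

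Of the 23 heat shock genes, all tested, 12 fell, 1 rose and 10 did not pass, and the median was -0.21. That is 52.2% lower and 4.35% higher. The shares were 2.48% and 2.22% of all genes, and 4.49% and 3.96% of those of at least 4 CPM. HSPA8 (ENSG00000109971, chr11:123057489-123063230), the constitutive HSP70 chaperone, stood at 3875 and 3949.5 CPM with BI-D1870 and at 1792 and 1755 CPM with BCI (log2 -1.14, SE 0.0337, edgeR adjusted p = 7.0e-14). With DMSO it stood at 2455 and 2518 CPM, so BI-D1870 libraries were the highest of the 3 groups and combination libraries the lowest. Of 11 HSPA8 pseudogenes tested, 6 were lower, and reads may be shared with the parent gene.

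HSP90AA1, the stress-inducible form of HSP90, stood at 1649.8 and 1631 CPM with BI-D1870 and at 1042 and 986 CPM with BCI (log2 -0.69, SE 0.0361, edgeR adjusted p = 3.2e-10), with DMSO at 1614 and 1621 CPM. HSPE1, the mitochondrial co-chaperonin, stood at 17.4 and 17.6 CPM and at 9.31 and 9.80 CPM (log2 -0.87, SE 0.0822, edgeR adjusted p = 2.2e-06). Its partner HSPD1 fell by 0.31 on the log2 scale, and HSP90AB1, the constitutive HSP90, by 0.26. HSPE1 and HSPD1 start next to each other on opposite strands, and other genes cover 23.9% of the exonic bases of HSPE1.

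The most inducible HSP70 copies did not follow. HSPA1A stood at 8.46 and 9.91 CPM with BI-D1870 and at 9.49 and 8.56 CPM with BCI (log2 -0.03, edgeR adjusted p = 0.95), and HSPA1B had log2 -0.10. HSPA1A and HSPA1B are near-identical, so their split of reads is uncertain. BAG3, the co-chaperone of HSP70, had log2 0.05. DNAJB1, an HSP40, fell from 114 and 115 CPM to 100.4 and 97.8 CPM (log2 -0.21, edgeR adjusted p = 0.0068), a call lost without combination replicate 2 (edgeR adjusted p = 0.12). The list member that rose was CRYAB, a small heat shock protein, with 4 and 0 counts against 62 and 39, or 0.0749 and 0 CPM against 0.912 and 0.548 CPM. With 1 library left out, 9 to 11 members of the list were lower. The list's median difference between the DMSO replicates at 48 h was -0.05.

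**Figure D3:**
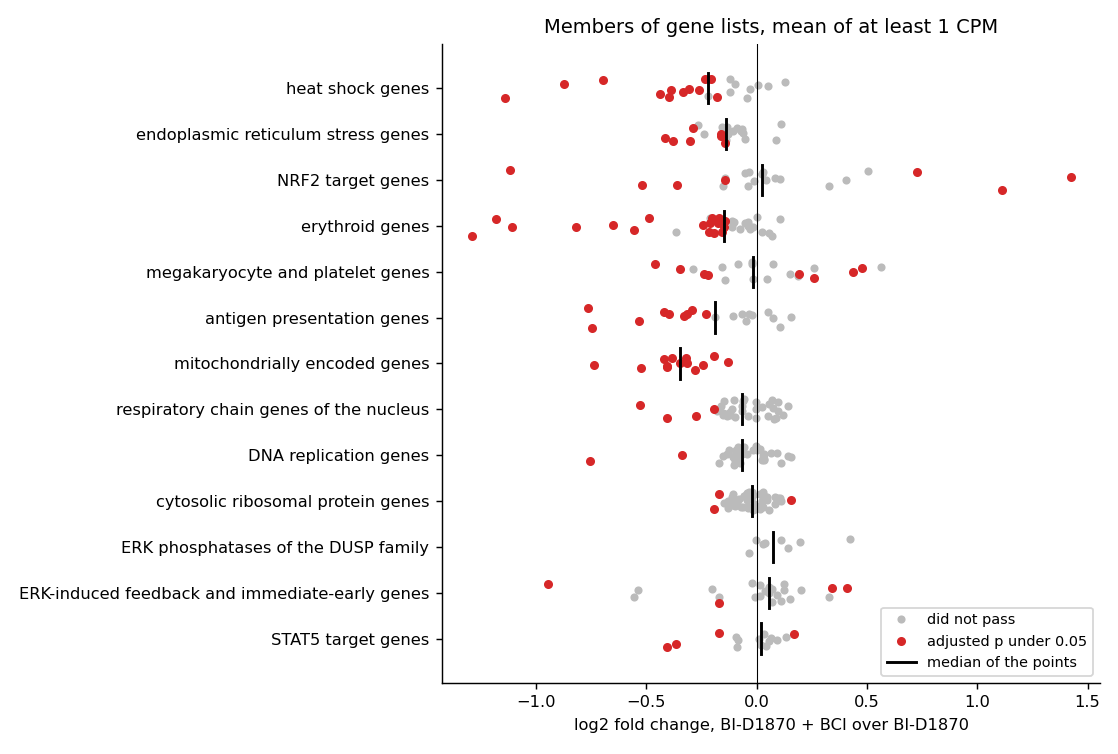
Log2 fold change of BI-D1870 with BCI over BI-D1870 for members of 13 gene lists with a mean of at least 1 CPM in the 4 libraries; each dot is a gene, red where the adjusted p was under 0.05, and the black bar is the median of the dots shown, with vertical jitter for legibility. All 13 mitochondrially encoded genes lie left of 0, heat shock and erythroid genes lie mostly left, and in the DNA replication list MCM7 stands alone at -0.76.

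Of 22 genes of endoplasmic reticulum (ER) stress tested, 7 fell, 0 rose and 15 did not pass, with a median of -0.14. That is 31.8% lower, against 4.49% of genes of at least 4 CPM. HSPA5, the main HSP70 of the ER, stood at 301 and 285 CPM with BI-D1870 and at 228 and 223 CPM with BCI (log2 -0.38, SE 0.0484, edgeR adjusted p = 8.1e-05). MANF (log2 -0.41), a secreted ER stress factor, HSP90B1 (-0.30) and the calcium-binding CALR (-0.29) fell with it, while XBP1 (-0.15) did not pass. Without BI-D1870 replicate 1, BI-D1870 replicate 2 or combination replicate 2, 4 members were lower in each case.

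Globins had the largest falls among erythroid genes. Of 38 listed, 36 were tested, 17 fell, 0 rose and 19 did not pass, and the median was -0.15. The share lower was 47.2%, against 4.49% of genes of at least 4 CPM. HBA1 (ENSG00000206172, chr16:176680-177522) stood at 469 and 517 CPM with BI-D1870 and at 204 and 199 CPM with BCI (log2 -1.29, SE 0.0462, edgeR adjusted p = 7.8e-13), with DMSO at 512 and 484 CPM. HBA1 and HBA2 are near-identical copies of alpha globin, and their sum was 624 and 690 CPM against 275 and 272 CPM. Alpha globin was thus at its DMSO level with BI-D1870 and below it with BCI added.

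The embryonic HBE1 stood at 201 and 211 CPM with BI-D1870 and at 108 and 125 CPM with BCI (log2 -0.82, SE 0.0518, edgeR adjusted p = 7.6e-09), with DMSO far above at 508 and 519 CPM. The fetal HBG2 stood at 1809 and 1836 CPM and at 1039.6 and 1281 CPM (log2 -0.65, SE 0.0618, edgeR adjusted p = 2.4e-06), with DMSO at 2477 and 2658 CPM. Exons of HBG2 and other genes cover 90.01% of the exonic bases of HBE1 in the annotation, so reads of these globins may be split unevenly. HBZ, the embryonic alpha-type globin, fell from 1.44 and 1.99 CPM to 0.897 and 0.703 CPM (log2 -1.11), a call lost without BI-D1870 replicate 2 (edgeR adjusted p = 0.13).

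The erythroid regulators did not pass: GATA1 had log2 -0.08, KLF1 -0.05 and TAL1 0.06. Without BI-D1870 replicate 2 the number of erythroid genes that fell was 6, and without BI-D1870 replicate 1 or combination replicate 1 it was 10. The list's median differed by -0.27 between the DMSO replicates at 48 h, and the part of that difference in the fall was not tested. Platelet genes were mixed, with 4 of 24 tested members higher and 4 lower. Each share was 16.7%, against 3.96% higher and 4.49% lower of genes of at least 4 CPM. The platelet receptor subunit GP9 rose from 33.5 and 32.6 CPM to 47.1 and 44.9 CPM (log2 0.48), while the integrin ITGB3 (-0.22) and the matrix protein THBS1 (-0.46) fell. Without BI-D1870 replicate 2, 1 platelet gene was higher and 2 were lower.

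Transcripts of the mitochondrial genome fell together. All 13 protein-coding members were called lower, with log2 fold changes from -0.74 (MT-ATP8) to -0.13 (MT-CO1) and a median of -0.35. MT-ND4, a subunit of complex I, stood at 7688 and 7551 CPM with BI-D1870 and at 6069.6 and 5415 CPM with BCI (log2 -0.41, SE 0.0415, edgeR adjusted p = 5.7e-06), and DMSO was lower than both at 4634 and 4517 CPM. The share of all counts on the mitochondrial genome was 6.17% and 6.20% with BI-D1870, 5.72% and 5.28% with BCI added and 3.58% and 3.64% with DMSO. With 1 library left out, 10 to 13 were called. Replicates of 1 treatment could differ as much in this list. Replicate 2 was higher than replicate 1 by 0.33 in the median for DMSO at 48 h, 0.42 for BCI at 48 h and 0.44 for BCI at 4 h. The DMSO replicates differed by -0.04 at 24 h and by 0.03 at 4 h. The part of such a difference in the fall was not tested.

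The 2 mitochondrial ribosomal RNAs, looked at after these values were seen, did not move with the mRNAs. MT-RNR1 was higher with BCI, at 4184 and 4543 CPM against 3303 and 2952 CPM (log2 0.48), and MT-RNR2 had log2 -0.07 and did not pass. Respiratory chain genes of the nucleus mostly did not pass, with 4 of 36 lower (11.1%, against 4.49% of genes of at least 4 CPM). Those were COX6A1 (log2 -0.53), COX8A (-0.40) and COX7A2 (-0.28), subunits of cytochrome oxidase, and NDUFB9 (-0.19) of complex I. Other genes cover 34.5% of the exonic bases of COX8A. Without BI-D1870 replicate 2, 2 of the list were lower. Among the 12 largest falls were NDUFB8 (log2 -0.74) of complex I and PSENEN (-0.74) of gamma-secretase, both under 6 CPM. Other genes cover 48.5% of the exonic bases of NDUFB8 and 56.5% of those of PSENEN. Both were lost with 1 library left out, NDUFB8 without BI-D1870 replicate 1 (edgeR adjusted p = 0.077) and PSENEN without BI-D1870 replicate 2 (edgeR adjusted p = 0.074).

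Of 22 antigen presentation genes tested, class I and class II, 9 fell, 0 rose and 13 did not pass, with a median of -0.15. The share lower was 40.9%, against 4.49% of genes of at least 4 CPM. With any 1 of the 4 libraries left out, 8 were lower. HLA-B stood at 169.8 and 172 CPM with BI-D1870 and at 104 and 100.1 CPM with BCI (log2 -0.75, SE 0.0450, edgeR adjusted p = 3.9e-09), with DMSO at 245 and 226 CPM. HLA-C (log2 -0.53), HLA-F (-0.76), the light chain B2M (-0.31) and the peptide transporter subunits TAP1 (-0.40) and TAP2 (-0.42) fell too. HLA genes resemble each other, so their split of reads is uncertain. Another gene covers 32.3% of the exonic bases of TAP2. The immunoproteasome subunits PSMB8 (log2 -0.23) and PSMB9 (-0.33) were also called lower. Class II members did not pass. The list's median differed by -0.24 between the DMSO replicates at 48 h, and its part was not tested.

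The RNAs of the phosphatase and kinase families that the compounds target did not pass. DUSP6 (ENSG00000139318, chr12:89347232-89353271), the target phosphatase, stood at 30.9 and 28.3 CPM with BI-D1870 and at 34.5 and 33.3 CPM with BCI (log2 0.20, SE 0.0652, edgeR adjusted p = 0.10), with DMSO at 22.1 and 22.6 CPM. DUSP1 had log2 0.04. Of 9 ERK phosphatases tested, 0 passed in either direction, with a median of 0.11 and 2 of 9 below 0. Of 4 RSK and MSK kinases tested, 0 passed, with RPS6KA1 at log2 0.10 and RPS6KA3 at -0.12. Of all genes of at least 4 CPM 8.46% passed, so 0 calls in lists this short say little of the pathway. The ERK inhibitor SPRY4 and the alarmins S100A8 and S100A9 had 0 to 2 counts in the 4 libraries and were not tested.

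Among 28 tested genes induced by ERK, 2 rose and 2 fell, 7.14% each way. Of genes of at least 4 CPM 3.96% rose and 4.49% fell, so the counts say little of the list as such. JUN (ENSG00000177606, chr1:58780788-58784327), part of the AP-1 factor, stood at 51.9 and 53.5 CPM with BI-D1870 and at 28.5 and 26.3 CPM with BCI (log2 -0.95, SE 0.0638, edgeR adjusted p = 1.9e-08), with DMSO at 8.44 and 8.12 CPM. The combination thus lay between the other 2 groups. EGR1, an early ERK target, rose from 37.6 and 35.5 CPM to 52.5 and 44.5 CPM (log2 0.41), and FOSL1, a partner of JUN, rose by 0.34 on the log2 scale. EGR1 and FOSL1 were both lost without BI-D1870 replicate 2, and at least 1 of them without any other of the 4 libraries. With 1 library left out, log2 was 0.28 to 0.52 for EGR1 and 0.33 to 0.36 for FOSL1.

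STAT5 carries JAK2 signals to the nucleus. Of its 17 listed targets, 3 fell and 1 rose. That is 17.6% and 5.88%, against 4.49% lower and 3.96% higher of genes of at least 4 CPM. CCND2, a G1 cyclin, stood at 114 and 105 CPM with BI-D1870 and at 81.0 and 84.6 CPM with BCI (log2 -0.41, SE 0.0472, edgeR adjusted p = 3.1e-05). The kinase PIM2 fell by 0.36 and MYC by 0.17 on the log2 scale, while BCL2L1, which protects from cell death, rose by 0.17. MYC was lost without BI-D1870 replicate 1 and without combination replicate 2 (log2 -0.20 to -0.14 with 1 library left out). BCL2L1 was lost without either BI-D1870 replicate and without combination replicate 2 (log2 0.13 to 0.20 with 1 library left out). It was also lost with GC and length trends removed (edgeR adjusted p = 0.074). PIM1 (log2 0.07) and CISH (0.02), which respond to STAT5 in most blood cells, did not pass. JAK2 itself fell by 0.21 (-0.24 to -0.17 with 1 library left out). Its call was lost without either BI-D1870 replicate and without combination replicate 2. PTPN6, a phosphatase that restrains cytokine receptors, rose from 249.9 and 237 CPM to 322 and 319 CPM (log2 0.40, SE 0.0391, edgeR adjusted p = 3.7e-06).

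Few cell cycle genes passed, and 1 of them stood apart. MCM7 (ENSG00000166508, chr7:100092728-100101940), a subunit of the replicative helicase, stood at 229 and 226 CPM with BI-D1870 and at 133 and 136 CPM with BCI (log2 -0.76, SE 0.0391, edgeR adjusted p = 3.2e-10), with DMSO at 332 and 325 CPM. The other subunits of the same ring did not pass, with log2 -0.00 for MCM2, -0.09 for MCM3 and MCM4, -0.08 for MCM5 and -0.06 for MCM6. Of 39 replication genes, 2 fell, MCM7 and GINS3, and of 41 mitosis genes 3 fell. Those shares are 5.13% and 7.32%, near the 4.49% of genes of at least 4 CPM, so the counts say little of the lists. GINS3 was lost with trends removed (edgeR adjusted p = 0.064). It was also lost with any 1 of the 4 libraries left out (log2 -0.40 to -0.28). The mitosis count was 1 with trends removed and 0 without BI-D1870 replicate 2 or combination replicate 2. Between the DMSO replicates at 48 h all 39 replication genes were lower in replicate 2, with a median of -0.50. The cytosolic ribosomal proteins were as steady, with 1 of 50 listed members higher (2%), 2 lower (4%) and a median of -0.02.

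The log2 fold change followed the GC content of the transcripts. Spearman's rho was 0.23 over 21321 tested genes and 0.41 over the 11147 with at least 4 CPM, a description across genes and not over replicates. In 10 equal bins of GC content of those 11147 genes the median rose from -0.08 in the lowest to 0.08 in the highest, the share of genes called higher from 0.0897% to 12.02%, and the share called lower dropped from 8.34% to 1.35%. The median GC content was 58.2% among genes called higher, 43.5% among those called lower and 47.9% among all tested.

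The trend held for each of the 4 pairs of libraries, with rho from 0.24 to 0.46. Replicates of 1 group also differed along GC content, with rho 0.23 between the BI-D1870 libraries, 0.18 between the combination libraries and 0.16 between the DMSO libraries, and 0.44 between the 2 DMSO libraries at 4 h. A rho as large as that of the comparison was thus measured between 2 libraries of the same treatment, and the part of GC content in the small changes was not tested. BI-D1870 against DMSO had rho 0.01.

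With GC and length trends removed, 846 genes were called, 373 higher and 473 lower. Of the original calls, 679 remained with the same direction, 313 higher and 366 lower, and of the 115 changed at least 1.5-fold, 107 remained. The gene groups kept their direction: 11 of 23 heat shock genes, 15 of 36 erythroid genes, 12 of 13 mitochondrially encoded genes and 9 of 22 antigen presentation genes were lower. Lists of small changes lost more. Splicing factor genes went from 7 lower of 30 to 3, and hypoxia and glycolysis genes from 6 higher of 30 to 3. NQO1 had log2 1.44, HSPA8 -1.13 and HBA1 -1.37 after removal, close to their values before it.

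**Figure D4:**
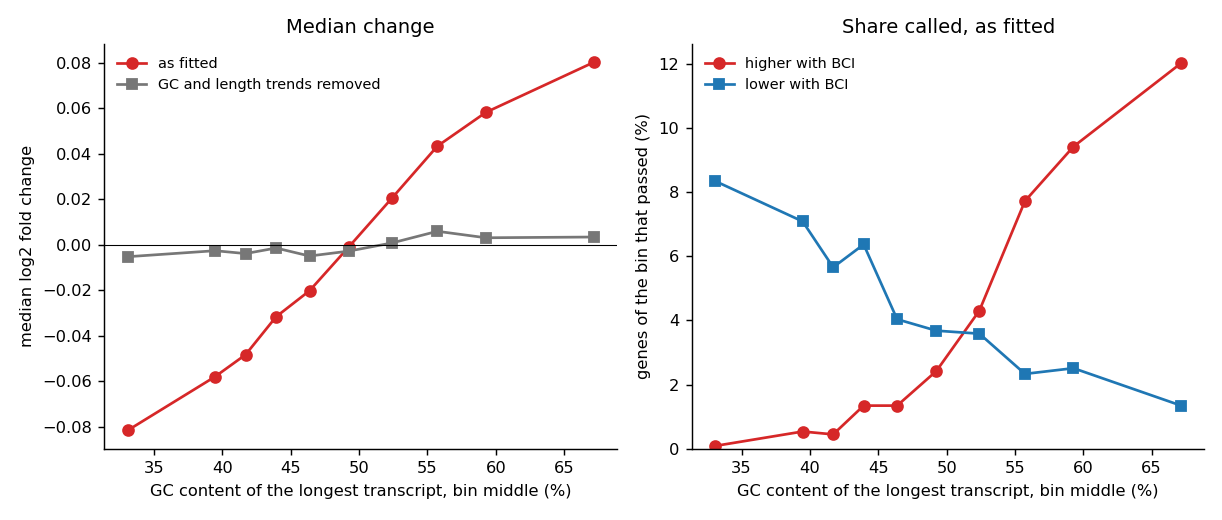
Left, median log2 fold change of BI-D1870 with BCI over BI-D1870 in 10 equal bins of transcript GC content (genes of at least 4 CPM), as fitted in red and with GC and length trends removed in grey; right, the percentage of genes in each bin called higher (red) or lower (blue) as fitted. The red line on the left climbs from -0.08 to 0.08 and the grey line stays near 0, while on the right calls pass from mostly lower to mostly higher.

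BCI alone at 4 h gave a wider response in other libraries, and values are set side by side because times, tables and controls differ. There, 2354 of 21908 genes were called, 10.7%, of which 1052 (4.80%) rose and 1302 (5.94%) fell. Of heat shock genes, 19 of 23 rose at 4 h with a median of 1.77, and on top of BI-D1870 at 24 h 12 fell. Of the 22 NRF2 targets tested, 13 rose and 0 fell at 4 h, against 3 and 4.

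HMOX1 showed the widest gap, with 10.0 and 9.27 CPM in DMSO and 1356 and 1191 CPM with BCI at 4 h (log2 7.05, edgeR adjusted p = 6.9e-07), and log2 -1.12 on top of BI-D1870. HSP90AA1 stood at 1125 and 1119 CPM in DMSO and at 3851 and 3802 CPM with BCI at 4 h (log2 1.77, edgeR adjusted p = 1.3e-06), and had -0.69 at 24 h. NQO1 rose in both, with log2 1.96 at 4 h. DUSP6 fell at 4 h (log2 -1.003, edgeR adjusted p = 4.1e-04), where on top of BI-D1870 it had 0.20 and did not pass. None of these differences between the 2 settings was tested.

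**Figure D5:**
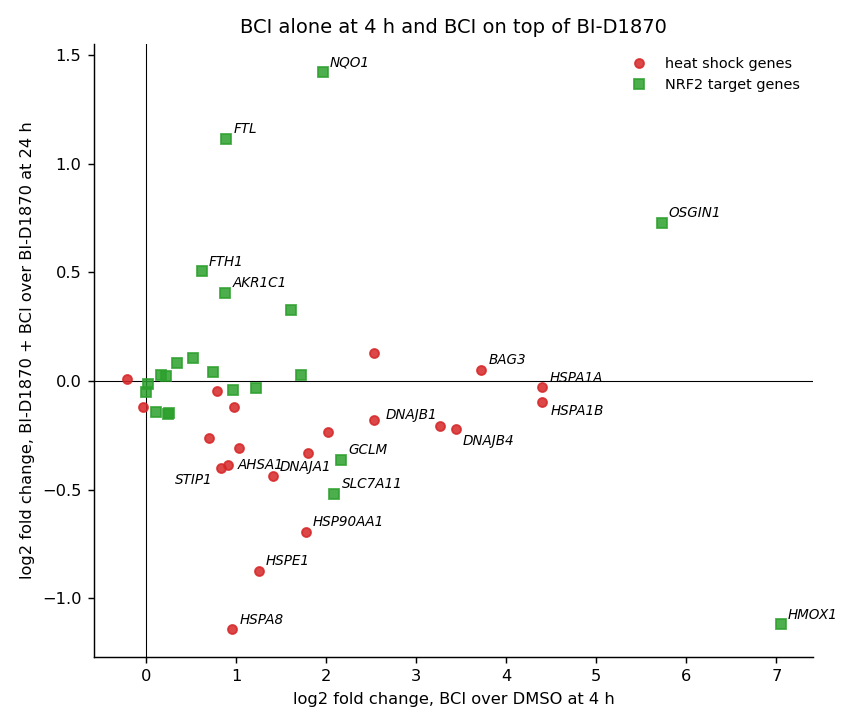
Log2 fold change of BCI on top of BI-D1870 at 24 h (vertical) against that of BCI over DMSO at 4 h (horizontal) for heat shock genes (red circles) and NRF2 targets (green squares) with a mean of at least 1 CPM in the 4 libraries at 24 h. Most points lie right of 0, HMOX1 at 7.05 and -1.12, and NQO1, FTL and OSGIN1 are the NRF2 targets that were called higher at 24 h.

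Of 20312 genes tested in both tables, 213 were called in both, which is 21.2% of the calls on top of BI-D1870 and 9.05% of those at 4 h. Of the 11151 genes of at least 4 CPM, 835 were called higher and 1158 lower at 4 h. On top of BI-D1870, 442 and 501 of them were called. Whether the overlap exceeds that of unrelated lists was not tested. Genes higher in both numbered 22, lower in both 43, higher at 24 h and lower at 4 h 83, and lower at 24 h and higher at 4 h 65. ERBB2, a growth factor receptor, was higher in both (log2 0.35 and 0.72), and TXNIP, which binds thioredoxin, was lower in both (-0.36 and -0.68). The WNT ligand WNT11 (0.57 and -1.86), the netrin receptor UNC5B (0.57 and -1.09) and the chromatin remodeller CHD5 (0.50 and -0.66) rose at 24 h and fell at 4 h. The 24 h calls of ERBB2 and WNT11 were not kept in every fit with 1 library left out. Their log2 fold changes there were 0.31 to 0.39 and 0.39 to 0.76. THBS1 had the opposite order, -0.46 at 24 h and 0.89 at 4 h. Over 11151 genes of at least 4 CPM, Spearman's rho of the 2 changes was -0.03.

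BCI alone at 48 h by the labels, in columns headed 24h, called 0 genes, 0% of 21908 (edgeR, 316 at an unadjusted p under 0.05, and 0 in DESeq2). NQO1 stood there at 3.66 and 5.27 CPM in DMSO and at 3.93 and 6.09 CPM with BCI. Its spread includes the replicate difference at 48 h.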

How the data were processed

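The authors deposited raw counts per gene, in 1 table per experiment. The submitters' processing notes name bcl2fastq, STAR 2.5.1a, edgeR and the build GRCh38. Strand setting, gene annotation and counting program were not given in the sources used here. Overlapping genes can therefore share reads. Among counts from 1 to 20 in the BI-D1870 table, 65.8 to 68.3% were even, so a fragment may have been counted as 2.

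The 55209 lines held 55093 genes after 116 repeats were dropped. Counts of all 6 libraries of the table were filtered with filterByExpr, scaled with TMM and fitted in edgeR 4.0.16 (R 4.3.3; quasi-likelihood, group only), with Benjamini-Hochberg adjusted p under 0.05 as the call. The biological coefficient of variation was 5.01%, with 3 residual degrees of freedom. The BCI table was fitted apart. Fold changes are BI-D1870 with BCI over BI-D1870. SE was derived from the fold change and its F statistic. GC content and length are of the longest GENCODE 29 transcript of each gene, known for 21321 of 21328 tested genes, and their lowess trends (span 0.3) entered as offsets in the alternative fit. On simulated data for this comparison (20753 genes), changes of 1.5, 2 and 4-fold were planted in some genes of at least 1 CPM. They were recovered in 76.1%, 92.5% and 100% of those genes, with 12 false calls of 191. Changes under 1.5-fold, as most calls here are, were not simulated. With a simulated GC trend (20693 genes), false calls were 125 without the offsets and 17 with them.

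Members and lists were chosen with earlier results of these data known. The text names genes of the drugs' pathway, the 12 largest rises and 12 largest falls of protein-coding genes with at least 4 CPM and separate groups, up to 4 passing members per list, or its 2 highest where fewer than 2 passed, and up to 6 genes per direction shared with BCI at 4 h. Others serve as comparison within a list. Alternatives were DESeq2 1.42.0 and its size factors, limma-voom 3.58.1, 2 filters, only the groups compared, a replicate block, trends removed, halved counts, glmTreat and each library left out. A few single-gene results are not reported here.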

Additional observations from a re-analysis of the deposited data

How the results depend on the processing

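The count of 1004 calls (474 higher, 530 lower) stayed within 1.5 times under DESeq2 size factors, no or a stricter filter, DESeq2, limma-voom, only the groups compared, the replicate block (1187), trends removed (846), the block with trends removed (896) and halved counts (1041). It did not with glmTreat at 1.5-fold (13, of which 4 higher and 9 lower). Leaving out 1 of the 6 libraries gave 325 to 1229 calls, 132 to 592 higher and 188 to 638 lower. The low values come from leaving out 1 of the 4 libraries compared, which leaves 1 library in its group, assumed to vary like the others. Of 128 named genes that passed, 49 passed with every library left out, and 21 did not pass with trends removed. No called direction reversed under these alternatives. The rho with GC content was 0.23 in all genes and 0.41 at 4 CPM or more.

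Same-numbered replicates did not deviate together (r = -0.06 over 11201 genes), so the numbers were not taken as pairs. For BI-D1870 against DMSO r was -0.18. BCI at 4 h called 555 to 693 genes without 1 library of its groups and 5691 with only the groups compared. BCI at 48 h called 27 without a filter and 18 with a replicate block and only the groups compared, chosen after seeing the data. For BCI at 48 h r was 0.82, over 2 pairs only. A level under 0.0428 to 0.0554 CPM cannot be told from 0 at this depth.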

Other observations

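A few single genes that the text above does not describe also passed. IL1B, an inflammatory cytokine, stood at 98.3 and 87.8 CPM with DMSO and at 2.27 and 2.32 CPM with BI-D1870, and with BCI added at 4.66 and 4.09 CPM (log2 0.93, SE 0.118, edgeR adjusted p = 7.6e-05). SPI1, a master factor of myeloid cells, stood at 120.0 and 113 CPM, 42.6 and 41.2 CPM, and 59.6 and 53.8 CPM in the same order (log2 0.44). Both lay between BI-D1870 and DMSO with BCI added. Few other members of their lists passed. Of 24 NF-kappaB and TNF response genes 2 rose (8.33%) and 1 fell (4.17%), with a median of -0.07. Of 15 tested monocyte and granulocyte genes 1 rose (6.67%). Among genes of at least 4 CPM 3.96% rose and 4.49% fell. The endothelial genes CDH5 (log2 0.60) and PECAM1 (0.28) and the keratin KRT18 (0.42) rose, 3 of the 8 tested epithelial and stromal markers (37.5%). Each was lost with 1 library left out, with edgeR adjusted p = 0.090 for CDH5 and 0.086 for PECAM1 without BI-D1870 replicate 2, and 0.12 for KRT18 without BI-D1870 replicate 1. In the 2 DMSO libraries at 48 h, PECAM1 stood at 140.2 and 224 CPM and CDH5 at 14.9 and 29.4 CPM.

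Of 24 tested replication-dependent histone genes, 5 fell, 1 rose and 18 did not pass, with a median of -0.38. The share lower was 20.8%, against 2.48% of all genes. H2AC6, a histone H2A gene, stood at 18.1 and 16.8 CPM with BI-D1870, at 10.8 and 10.4 CPM with BCI and at 3.62 and 3.60 CPM with DMSO (log2 -0.72, SE 0.0926, edgeR adjusted p = 8.5e-05). Without 1 of the 4 libraries, 1 to 2 of these genes were lower. Of 8 tested metallothionein and zinc response genes, 3 fell (37.5%, against 2.48% of all genes). Not all 3 kept their calls with 1 library left out. MT2A led in level, from 104 and 105 CPM to 79.7 and 72.4 CPM (log2 -0.45). RPL26, picked after its values were seen, fell from 54.3 and 55.8 CPM to 34.8 and 32.98 CPM (log2 -0.70), while the 50 listed ribosomal protein genes, which leave it out, had a median of -0.02.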
